A study of Schmidtea mediterranea with 15 samples.

Results

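A set of 92 transcript models of the freshwater planarian Schmidtea mediterranea was defined by a rise at 24 h after gamma irradiation and a level below that of unirradiated worms at 96 h. The 92 came from 26671 models in a table of RPKM values (reads per kilobase of model, scaled to the library). They were chosen on their measured values. Each had a mean of at least 3 RPKM in unirradiated worms (0 h), a log2 change of at least 0.25 at 24 h and a log2 change of -0.4 or lower at 96 h, both on group means with 0.5 RPKM added. What these models do at 24 h and 96 h is therefore a description, and the libraries at 48 h and 72 h are those the choice did not use.

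The libraries were made from polyA RNA of whole adult worms. All 15 came from CIW4, a single clonal line, so the data describe 1 genetic background. The worms were 2 to 3 mm long and had been starved for at least 1 week. The 5 groups of 3 libraries were unirradiated worms (0 rad, 0 h) and worms taken 24, 48, 72 and 96 h after 6000 rad of gamma radiation. How many worms went into a library is not given in the sources used here.

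Planarians hold dividing stem cells called neoblasts, whose descendants supply new cells to all tissues, and ionising radiation is known to remove these stem cells. Cells that have already left the cycle can go on maturing for some days, while no further ones enter the path behind them. Whole-worm RNA after irradiation is therefore a long-used way to follow transcripts of stem cells, of their maturing descendants and of lasting tissues. The IDs come without gene names, so no function or cell type is given to any of the 92 models, and the labelled tissue could not be checked against marker genes. In RNA of whole worms, fewer cells of a type and less RNA per cell cannot be told apart.

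The number of reads recovered from the values was 9749391 to 13801926 in the 0 h libraries and 16435841 to 30707808 in the irradiated ones, so every 0 h library was the shallower. The lowest count of a member in any library was 9 reads and the median of these lowest counts was 235 reads. Separate cultures for the libraries of 1 group are not stated, and the p-values therefore rest on a spread that may be technical. Unirradiated worms were sampled at 0 h only, so irradiation, elapsed time and any library batch that goes with them cannot be told apart.

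The median of the 92 models rose and then fell alike in the 3 libraries of each time. The rule used the libraries at 0 h, 24 h and 96 h, so the order of the medians at those times follows from the choice. In the 0 h libraries the median member lay within -0.02 to 0.02 of the 0 h mean on the log2(RPKM + 0.5) scale. It lay 0.51, 0.53 and 0.46 above that mean in the 3 libraries at 24 h, and 0.10, 0.17 and 0.07 above it at 48 h. At 72 h it was at -0.40, -0.38 and -0.39, and by 96 h it had reached -0.95, -0.93 and -0.96. These medians did not overlap between any 2 times, and from 24 h on each later group lay below the one before. Over all 21231 tested models, those with at least 1 RPKM in at least 3 libraries, the library medians stayed between -0.01 and 0.04. All 92 members were among the tested models.

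**Figure D1:**
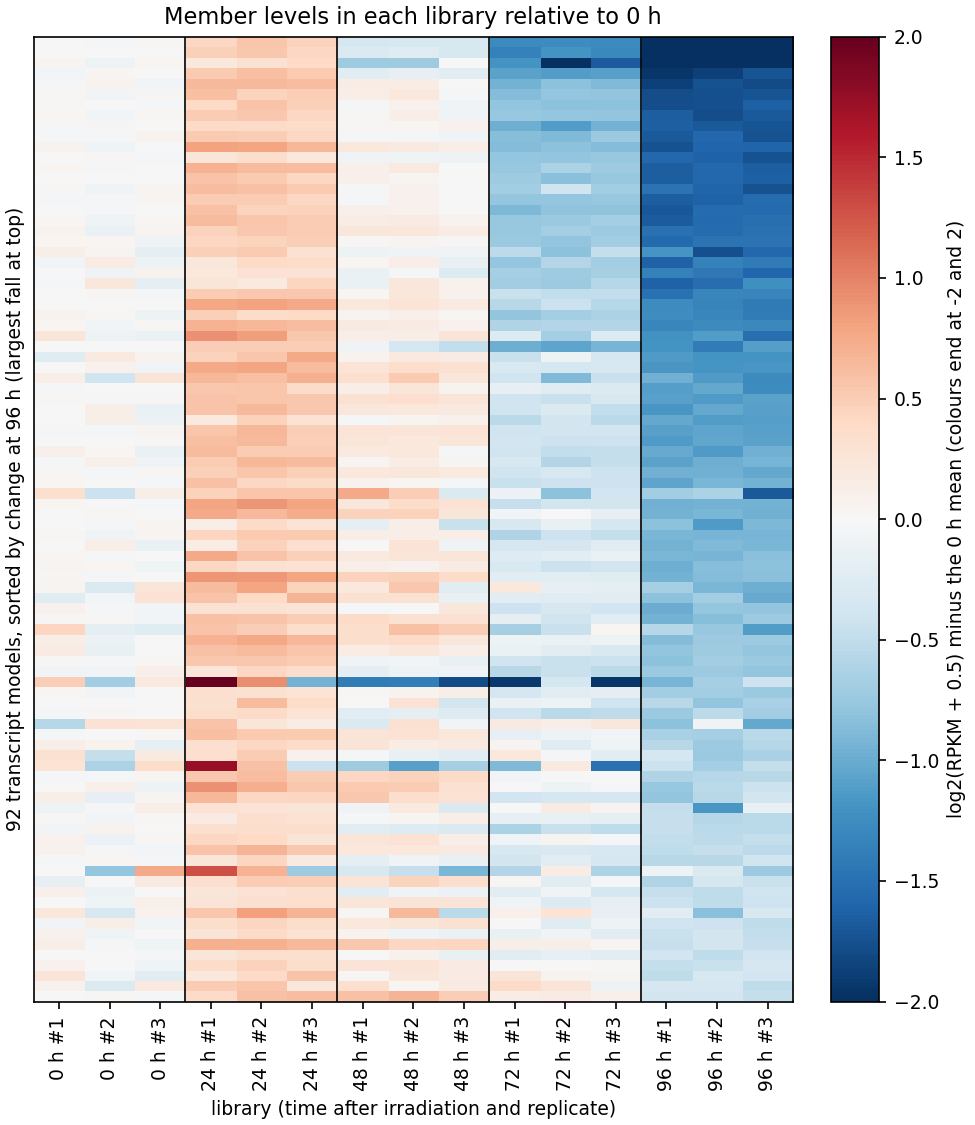
Level of each of the 92 models (rows, sorted by their change at 96 h) in each of the 15 libraries (columns), as log2(RPKM + 0.5) minus the mean of the 0 h libraries, red above and blue below. Nearly all rows are red at 24 h, pale at 48 h and blue at 72 h and 96 h, and 3 rows with a dark red first library at 24 h stand apart.

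As a share of all recovered reads, the 92 models took 0.584% ± 0.00497 in unirradiated worms (SD, n = 3) and 0.851% ± 0.0290 after 24 h. The share was 0.632% ± 0.0170 in the 48 h group, 0.413% ± 0.00147 in the 72 h group and 0.275% ± 0.00300 in the 96 h group. The 5 most abundant members held 31.1% to 35.0% of these reads in each library, so the share follows them in part. All 3 libraries at 24 h were above all 3 at 0 h for 84 of the 92 members, where 23.0% of all tested models did the same. All 3 libraries at 96 h were below all 3 at 0 h for 86 members, against 25.5% of all tested models. Both counts use the values that chose the members and are given only to show the spread.

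Members differed more in how far they fell than in how far they rose. The log2 change at 24 h ran from 0.26 to 1.14 with a median of 0.50 and quartiles of 0.35 and 0.58, and 1 member reached 2-fold. At 96 h the change ran from -2.25 to -0.40 with a median of -0.94 and quartiles of -1.45 and -0.60, and 40 members were at least 2-fold below 0 h. Levels at 0 h ran from 3.15 to 1285 RPKM with a median of 35.2 RPKM. The rise at 24 h was the highest point for 90 members, and 96 h was the lowest for 88. A strictly falling order of means from 24 h through 48 h and 72 h to 96 h was found in 82 members. The rule sets 24 h above 0 h and 96 h below it, so these counts follow in part from the choice. It also cuts off the ranges of change at 24 h and 96 h at its limits. How many of all tested models had such orders was not counted.

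The 6 libraries at 72 h and 48 h played no part in choosing the members. Yet the interval between them lies within the fall from 24 to 96 h that the rule requires. The spread behind the limma p-values came from all 15 libraries, among them the 9 that the rule used. The level at 72 h was called lower than at 48 h for 69 of the 92 models (limma, Benjamini-Hochberg adjusted p below 0.05), against 1.4% of all tested models. None of the 92 was called higher, which lies near the 0.41% of all tested models that were. None was higher at an unadjusted p below 0.05 in limma either, for which the share over all tested models was not counted. A fit to these 6 libraries alone called 57 members lower, where 110 of all tested models were, and 0 higher, where 8 were. The other tool, limma-voom on the recovered reads, called 72 of the 92 lower and 0 higher, against 2.17% lower and 1.22% higher over all tested models. The limma change of the members had a median of -0.52 on the log2 scale, where the median over all tested models was -0.00275. Over all tested models 87 were called higher and 297 lower, a split that became 152 (0.716%) and 273 (1.29%) with quantile normalization, under which 68 members were called lower and 0 higher.

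All 3 libraries at 72 h lay below all 3 at 48 h for 77 of the 92 members, against 8.7% of all tested models. A fall that was both called and at least 1.5-fold was found in 40 members, against 0.344% of all tested models. Such falls were rare in the whole table, with 73 models in all, so the 40 members made up 54.8% of them and were 43.5% of the members. Of the 297 models called lower at 72 h at any size, the 69 members were 23.2%. The other 23 members were not called, and their levels at 0 h were lower (median 11.9 RPKM, from 3.15 to 190.1) than those of the 69 (median 48.2 RPKM, from 3.34 to 1285). The mean of the libraries was higher at 72 h than at 48 h in 7 members.

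**Figure D2:**
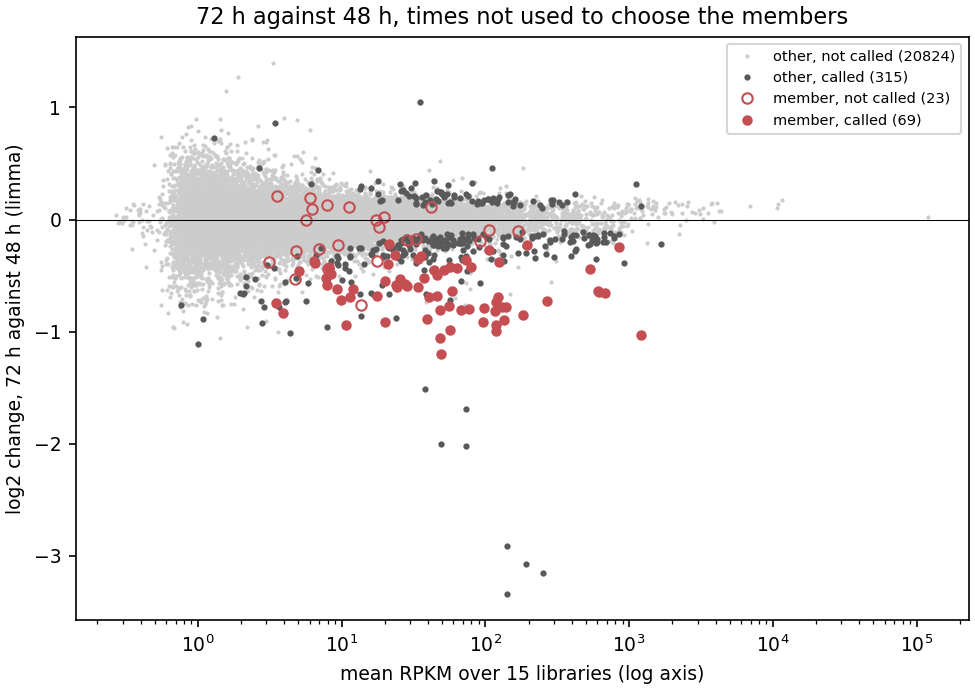
Limma log2 change of 72 h against 48 h for each tested model (vertical axis) by its mean RPKM over the 15 libraries (horizontal log axis), with the 92 members in red (filled where called, 69, open where not, 23) and other models in grey (dark where called, 315). All 69 filled red points lie below 0.

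The mean level at 48 h was above that of unirradiated worms in 66 members and below it in 26. At 72 h it was below in 84. These comparisons share the 0 h libraries with the rule and with each other, so they are not independent of the choice. At 48 h, 29 members were called higher than at 0 h, where 20.5% of all tested models were, and 6 were called lower, where 19.5% were (limma, adjusted p below 0.05). The share of members called higher at 48 h, 31.5%, lay nearer to its background than the counts at 72 h. At 72 h, 64 members were called lower than at 0 h, against 21.5% of all tested models. None was called higher at 72 h by limma, where 22.1% of all tested models were, and none by limma-voom (20.1% of all). None was higher at an unadjusted p below 0.05 in limma, for which the share over all tested models was not counted. After quantile normalization 2 were called higher (27.9% of all), and 1 was without 0 h replicate 1.

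By their means, most members crossed the level of unirradiated worms between 48 and 72 h. The rule puts each member above 0 h at 24 h and below it at 96 h, so a crossing at some time follows from the choice. In all, 60 members were above 0 h at 48 h and below it at 72 h, 24 were below at both times, 6 above at both and 2 below at 48 h and above at 72 h. How many of all tested models had these courses by means was not counted. By the limma calls, 18 members were higher at 48 h and lower at 72 h, a course that 26 of all tested models (0.122%) had. There were 40 not called at 48 h and lower at 72 h, against 3.87% of all tested models. A further 11 were higher at 48 h and not called at 72 h, against 3.32%. The 6 lower at both times and the 17 called at neither stand beside 17.5% and 51.1% of all tested models. The median log2 change per interval was -0.40 from 24 to 48 h, -0.52 from 48 to 72 h and -0.60 from 72 to 96 h, the first and last of which contain libraries used in the choice. The largest of these drops was that from 72 to 96 h in 53 members, from 48 to 72 h in 26 and from 24 to 48 h in 13.

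SMED30009801 had the next largest change at 24 h after SMED30023781, described further on, and ranked 5 of the 92 in level. It stood at 625, 600.1 and 620.5 RPKM in the 0 h libraries, 1139.8, 1124 and 1059 in those of 24 h, 845, 855 and 793 in those of 48 h, 532, 525 and 519 in those of 72 h and 321, 339 and 343 in those of 96 h. No 2 time points overlapped, and the 48 h level was still above that of unirradiated worms. The mean went from 615 ± 13.3 RPKM at 0 h to 1107 ± 42.8 RPKM a day later (SD, n = 3), and by 96 h was 1.84-fold below its start. From 48 to 72 h its level fell by 0.66 on the log2 scale (SE 0.04, limma adjusted p = 3.28e-08), from 831 ± 33.3 to 525 ± 6.66 RPKM (SD, n = 3). Against 0 h the log2 difference at 48 h was 0.43 (SE 0.04) with a limma adjusted p of 2.77e-07, and that at 72 h was -0.23 (SE 0.04) with a limma adjusted p of 0.000156. The last call was lost after quantile normalization, with a change of -0.02 and an adjusted p of 0.644 in limma.

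SMED30009513 and SMED30018353 had the largest falls by 96 h. SMED30009513 was at 157, 152 and 159 RPKM in the 0 h libraries, at 209, 228 and 216 in the 24 h ones, then at 122, 125 and 124 (48 h), 64.0, 65.2 and 63.9 (72 h) and 33.1, 33.7 and 30.5 (96 h). SMED30018353 was at 154.9 to 155.0 RPKM in the 3 unirradiated libraries, at 215, 225 and 207 in the 24 h ones, then at 127, 130.4 and 124 (48 h), 60.7, 67.3 and 62.9 (72 h) and 34.3, 31.8 and 31.7 (96 h). Both were above 0 h in every library at 24 h and already below it in every library at 48 h, and no 2 time points overlapped. Their means at 96 h were 4.81-fold and 4.76-fold below 0 h.

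From 48 to 72 h SMED30009513 changed by -0.94 on the log2 scale (SE 0.04, limma adjusted p = 1.08e-09) and SMED30018353 by -0.997 (SE 0.04, limma adjusted p = 1.08e-09). Against 0 h, SMED30009513 differed by -0.33 on the log2 scale after 48 h and by -1.27 after 72 h, each with an SE of 0.04 and with limma adjusted p-values of 6.55e-06 and 2.12e-12. For SMED30018353 these differences were -0.28 and -1.28, again with an SE of 0.04, and the limma adjusted p-values were 6.05e-05 and 4.13e-12. The pair had levels within 1.1-fold of each other in each of the 15 libraries, although the lengths worked out from the values differ, at 1650 and 1408 bases. Only 1 other pair of members was as close, at 626 and 628 RPKM at 0 h, with lengths of 700 and 665 bases. Whether such models share reads was not tested.

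SMED30023781 had the largest mean change at 24 h of the 92, and its libraries do not bear out a steady rise. Its values were 61.7, 26.8 and 50.0 RPKM in unirradiated worms and 201, 83.9 and 22.5 a day after irradiation. They then stood at 16.2, 16.4 and 12.3 (48 h), 11.1, 34.2 and 10.9 (72 h) and 22.6, 27.4 and 32.7 (96 h). The groups at 0 h and 24 h overlapped, and the third library at 24 h was below all 3 at 0 h. Without 24 h replicate 1 the log2 change at 24 h was 0.20, under the limit of 0.25, and the model would not be a member. Its model is 124 bases long, the shortest of the 92, and its libraries held 27 to 420 reads. Between 48 and 72 h the log2 difference was 0.12 (SE 0.59) with a limma adjusted p of 0.967. Against 0 h it was -1.52 after 48 h and -1.41 after 72 h, both with an SE of 0.59, and the limma adjusted p-values of 0.0509 and 0.0652 missed the threshold. These last 2 calls turned on single libraries. Without 0 h replicate 2, 72 h replicate 2, 24 h replicate 1 or 24 h replicate 3 both were made, with adjusted p-values in limma from 0.00838 to 0.0432, and over all single libraries left out they ran up to 0.196.

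**Figure D3:**
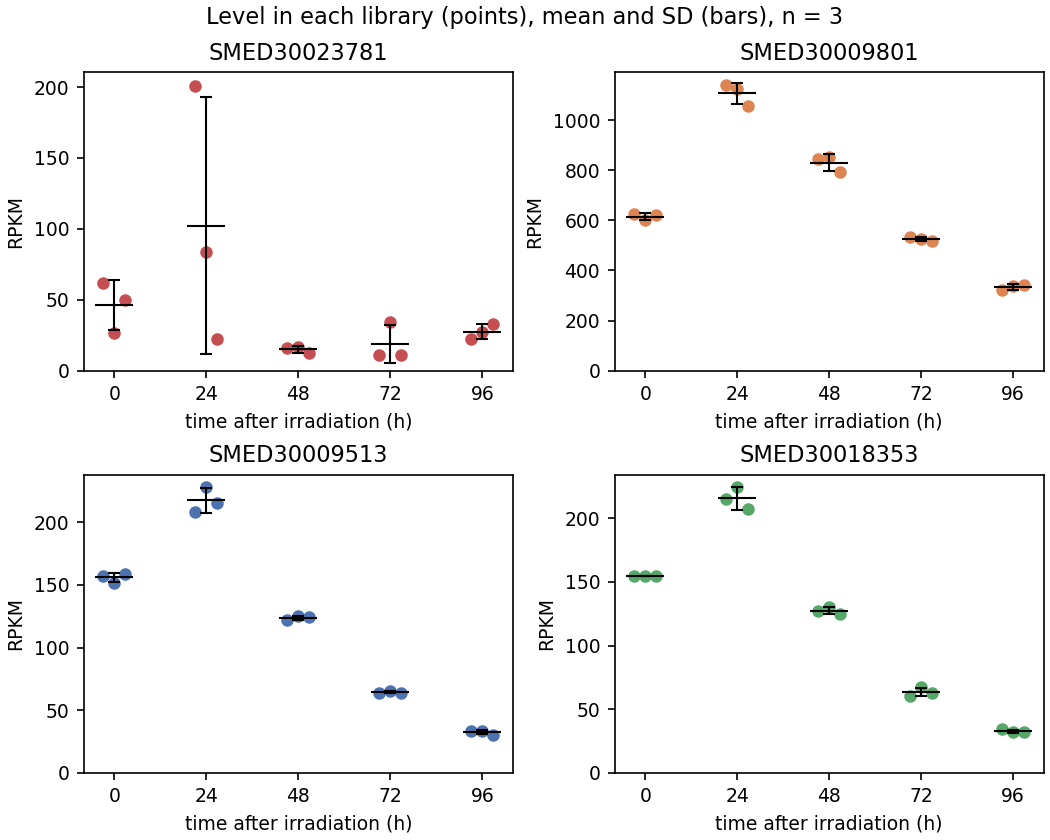
RPKM of the 4 named models in each library (points) by time after irradiation, with the group mean and SD (black bars, n = 3); each panel has its own axis from 0. SMED30009801, SMED30009513 and SMED30018353 rise at 24 h and then fall at each time, while SMED30023781 ranges from 22.5 to 201 RPKM within the 24 h group.

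SMED30023781 was 1 of 3 members whose mean was lowest at 48 h in place of 96 h, and all 3 had the same uneven libraries. In these 3 the first library at 24 h was 4.75 to 8.93 times the third, whereas in the other 89 members this ratio ran from 0.768 to 1.36 with a median of 1.03. All 3 leave the set when 24 h replicate 1 is left out. None of the 3 was called by limma in the comparisons of 48 h with 0 h, of 72 h with 0 h or of 72 h with 48 h.

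The most abundant member, with a model of 270 bases, stood at 1352, 1211 and 1293 RPKM at 0 h and 2236, 2227 and 2039 RPKM at 24 h. It was at 1494, 1457 and 1413 RPKM at 48 h, 702, 724 and 703 at 72 h and 382, 429 and 422 at 96 h. Its change from 48 to 72 h was -1.03 on the log2 scale (SE 0.05, limma adjusted p = 7.14e-09), a 2.05-fold lower mean, and the 72 h libraries were all below those of 48 h. The next in level, with a model of 348 bases, moved much less. Its libraries held 882, 762 and 844 RPKM at 0 h, 1098, 1087 and 989 at 24 h and 982, 1017 and 909 at 48 h, and then 790.3, 860.4 and 805 at 72 h and 587, 575 and 594 at 96 h. Its 72 h values overlapped with those at 0 h, and its change from 48 to 72 h was -0.24 (SE 0.06, limma adjusted p = 0.0452).

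The fall from 48 to 72 h is given next for members split by the 96 h and 24 h values that chose them, as a description only. A member lower at 96 h has further to fall on the way, and the sides of the first split also differed in level, with medians at 0 h of 63.5 and 22.3 RPKM. Of the 40 members at least 2-fold below 0 h at 96 h, 38 were called lower by limma between 48 and 72 h, with a median log2 change of -0.75 and quartiles of -0.89 and -0.63. Of the other 52, 31 were called, with a median of -0.36 and quartiles of -0.46 and -0.18. Split by the rise, 18 of the 22 members at least 1.5-fold higher at 24 h were called, with a median of -0.53. Of the 70 with a smaller rise 51 were called, with a median of -0.52. Of all tested models, 1.4% were called lower over this interval. The differences between sides of a split were not tested.

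The share of members called rose with their level, as that of all models did. Of the members at 3 to 10 RPKM at 0 h, 10 of 21 were called lower by limma between 48 and 72 h, against 0.461% of all tested models in that range of levels. In the ranges of 10 to 30, 30 to 100 and at least 100 RPKM the counts were 15 of 22, 23 of 26 and 21 of 23, against 1.14% and 4.26% of all tested models in the first and second of these ranges and 99 of 989 in the last. The median change over the 4 ranges was -0.39, -0.59, -0.53 and -0.73. Over the 92 members, the log2 level at 0 h and the change from 48 to 72 h had a Pearson correlation of -0.35 and a Spearman correlation of -0.36, a description of models that share the same libraries.

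The members were short models. Their length, worked out from the steps in the values, had a median of 687.5 bases (range 124 to 2921), and 61 of the 92 (66.3%) were under 1000 bases. Of all 14367 models with at least 3 RPKM at 0 h, 34.5% were that short, and their median was 1361 bases. Length and the change from 48 to 72 h were weakly related among the members (Pearson correlation -0.13, Spearman -0.05). The part that length has in membership was not tested.

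Most models that rose at 24 h did not reach the limit set for the fall at 96 h. At a mean of at least 3 RPKM at 0 h, 2441 models had a log2 change of at least 0.25 at 24 h without that fall, and 294 of these were below 0 h at 96 h by a smaller amount. Their median log2 change over the 4 times in turn was 0.35, 0.31, 0.32 and 0.24. From 48 to 72 h, 69 of these 2441 (2.83%) were called lower by limma, against 69 of the 92 members.

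The models that ended low without reaching the limit for a rise gave another comparison over the middle interval. Each set here held only models with a mean of at least 3 RPKM at 0 h. In 431 models the log2 change was -0.4 or lower at 96 h and between -0.25 and 0.25 at 24 h. Their median log2 change over the 4 times in turn was -0.11, -0.32, -0.40 and -0.50. The rules of the sets fix much of how far each falls from 24 to 96 h, with medians of -0.42 for the 431 and -1.49 for the members, so a smaller fall between 48 and 72 h follows in part from the definition. At 72 h both sets had a median of -0.40, and 41 of the 431 (9.51%) were called lower between 48 and 72 h, with a median change of -0.09 against -0.52 for the members. A test of the difference between these sets was not made, and their levels at 0 h differ (medians of 16.2 and 35.2 RPKM). The 2036 models that were lower at both 24 h and 96 h had 63 such calls (3.09%). The reverse course, a change of -0.25 or lower at 24 h and 0.4 or higher at 96 h, was found in 73 models. Their median change from 48 to 72 h was -0.15, with 51 of the 73 below 0. By limma 0 of them were called lower over this interval, near the 1.4% of all tested models that were. A single model (1.37%) was called higher, where 0.41% of all tested models were.

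**Figure D4:**
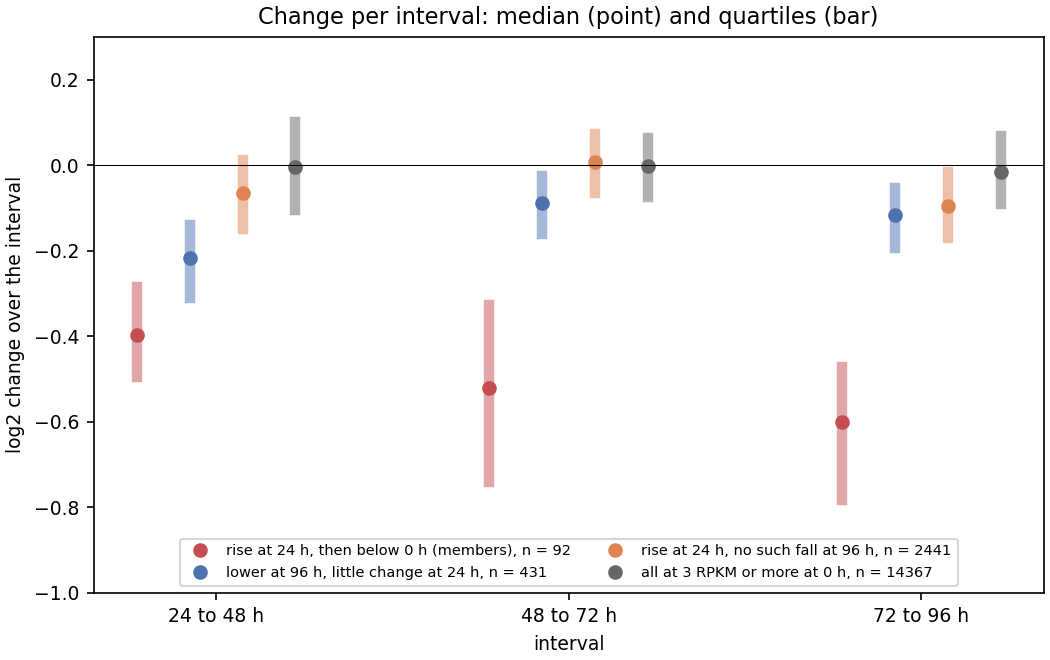
Log2 change over each interval (horizontal axis) for the 92 members, the 431 models that fell by 96 h with little change at 24 h, the 2441 that rose at 24 h without that fall, and all 14367 models at 3 RPKM or more at 0 h, as the median (point) and the quartiles (bar). From 48 to 72 h, the interval whose libraries did not enter the choice, the median is -0.52 for the members, -0.09 and 0.01 for the other sets and close to 0 for all.

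The rule was also applied without some of its libraries, and the rise and the fall were looked for in those left out, as a description only. All of these libraries entered the choice of the 92, so this is no separate check of them. Separate cultures for the libraries of 1 group are not stated, so a left-out library may come from the same culture as those used. When the rule was applied without the libraries numbered 1, it chose 94 models, of which 82 were among the 92. In the left-out libraries 91 of the 94 were higher at 24 h than at 0 h, 93 were lower at 96 h and 90 did both. Without the libraries numbered 2, 86 of 90 chosen models did both, and without those numbered 3, 91 of 95. Among all models with at least 3 RPKM at 0 h, 11.5%, 12.1% and 11.9% did both in the libraries numbered 1, 2 and 3. The median log2 change at 24 h was 0.45, 0.55 and 0.45 in the left-out libraries, and 0.48, 0.47 and 0.51 in those used. At 96 h it was -1.01, -0.89 and -0.90 against -0.96, -0.96 and -0.93. Not every chosen model passed both limits of the rule again, which 66, 68 and 67 did.

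The limits of the rule cut through a continuous range of values. The members nearest to the limit at 24 h had log2 changes of 0.258, 0.262 and 0.262, and the nearest models outside had 0.245, 0.241 and 0.239. At 96 h the nearest values were -0.405, -0.406 and -0.414 inside and -0.399, -0.398 and -0.394 outside. For the level at 0 h they were 3.15, 3.34 and 3.83 RPKM inside and 2.88, 2.88 and 2.81 RPKM outside. When each of the 9 libraries behind the rule was left out in turn, 65 of the 92 members met the rule every time and 27 did not at least once. Of the 65, 58 were called lower by limma between 48 and 72 h, with a median change of -0.63. Of the 27, 11 were called, and of all tested models 1.4% were. This split rests on the values that chose the members, and the difference between its sides was not tested.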

How the data were processed

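Transcript levels were measured in 15 libraries of whole planarians. The authors deposited RPKM values for 26671 transcript models, as the file's name and values show. CASAVA 1.8.2, Bowtie and edgeR are named in the submitters' processing notes, with no role or order. No source used here gives the transcript set, the mapping settings, strand use or how reads with several matches were counted, so near-identical, overlapping or antisense models may share reads. The values are whole multiples of a step set by model length and library, and whole reads and lengths were worked out from these steps for all 26671 models (tolerance 0.001 reads, 100%). The recovered reads are the depth given, and 0 columns of other samples were present.

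Values were transformed as log2(RPKM + 0.5), and 21231 models reaching 1 RPKM in 3 or more libraries were tested. Limma 3.58.1 (R 4.3.3) estimated a mean for each time from the 15 libraries together, with a variance trend and two-sided contrasts, and p-values were Benjamini-Hochberg adjusted over all tested models. Fold changes on this scale understate those of low models. The fit and the recovery were tested on simulated data. With no names in the table, the rule for naming gave the 2 members with the largest change at 24 h and the 2 with the lowest at 96 h, and other members appear as counts or by their rank in level, small counts included. Marker lists written down for this work could not be used without names. The members, comparison sets and lists were chosen with earlier results of these data known. Alternatives were other pseudocounts, level limits, filters and scalings, limma-voom on recovered reads, a replicate block, a fit to the 6 libraries compared and leaving out each library. Python 3.11.15 with pandas 2.3.3 and numpy 2.4.6 served for tables and matplotlib 3.10.9 for figures.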

Additional observations from a re-analysis of the deposited data

Results flagged for a closer look

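For 3 of the 4 named models, limma's contrast of 72 h with 48 h found levels that differed between these times. The 4 were named for their changes at 24 h or 96 h, which the rule used. The interval lies within the fall that the rule requires, so a fall here follows in part from the choice. Of all tested models 1.4% were called lower over it. The log2 change over this interval was -0.66 for SMED30009801, -0.94 for SMED30009513 and -0.997 for SMED30018353. With 3 libraries a group, single libraries were not screened for outlying values.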

How the results depend on the processing

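The rule gave 71 to 106 members under other pseudocounts (0.1 and 1 RPKM), level limits (1 and 10 RPKM) and scalings, and 86 to 95 with 1 library left out. With quantile normalization 78 of its 85 models were among the 92. The count of members called lower at 72 h than at 48 h was 57 in the fit to the 6 libraries compared, where 110 of all tested models were. It was 72 with limma-voom, where 460 were, and the other settings lay between. With 1 library left out it was 60 to 70, where 167 to 280 of all tested models were called lower. In every one of these fits 0 members were called higher, where 8 to 260 of all models were. Against 0 h, 6 to 9 members were called lower and 26 to 34 higher at 48 h, and 59 to 66 lower at 72 h. Over all models of these fits, 3735 to 4378 were called lower and 3736 to 5319 higher at 48 h. At 72 h, 4013 to 4888 of all models were called lower. The count higher at 72 h than at 0 h, 0 in the reported fit, was 2 with quantile normalization and 0 to 1 with 1 library left out, and 0 in the other fits. The cause was not tested. For SMED30023781 the change from 48 to 72 h, not called in any fit, was -0.00494 with limma-voom and -0.42 to 0.39 with 1 library left out. A fit to the 6 libraries compared called it lower than 0 h at 48 h (adjusted p = 0.00177) and at 72 h (adjusted p = 0.0274) in limma, and quantile normalization did so at 48 h (adjusted p = 0.0432). With the replicate number as a block, 68 members were called lower at 72 h than at 48 h, 66 of them among the 69. In that fit 259 of all tested models were called lower. The numbers were not taken as pairs, since 1 of 30 same-numbered pairs of libraries had a correlation of deviations above 0.1. The median correlation was -0.000664 over these 30 pairs and 1.71e-05 over 60 pairs with unlike numbers. Libraries that correlated best with their own number were 7 of 15, a count for which no chance level was worked out. The 23 members not called at 72 h against 48 h had a median of 139 reads at 48 h and the 69 called ones 957, and the part of depth in this was not tested.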
